A study of Mus musculus with 5 samples.

Results

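The probes described here are 1584 long oligonucleotides of a mouse exonic evidence-based oligo set (MEEBO) whose identifiers start with mMA. Each was set against the brightest probe of the mMC class for the same gene on the same array. The array carried 35078 gene probes, of which 4201 were of the mMA class. Of these, 2864 mapped to 1 gene symbol and 2744 of those belonged to a gene that also had an mMC probe. The scanner software marked 946 of the 2744 as found on fewer than 2 arrays, and a further 214 had no mMC probe found on 2 or more arrays. The 1584 that remained covered 1319 genes. The probe and its partner carried the same transcript accession in 1470 pairs and different ones in 114. The sources used here do not give what the class letters stand for, and where on a transcript each probe lies was not analysed here.

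The tissue was colon labelled as non-involved, from mice on a C57Bl6 background that were 10 weeks old at the start. All mice had 7.4 mg/kg azoxymethane (AOM), a carcinogen, followed by 2 cycles of DSS (dextran sulfate sodium), an agent toxic to the colon lining, and were examined on day 56. Villin-TLR4 mice (2 arrays, 1 female and 1 male) had DSS at 1.5%, and WT littermates (3 arrays, all female) had DSS at 3%. As the name says, the villin promoter drives TLR4, the receptor for bacterial lipopolysaccharide, and this promoter is active in intestinal epithelium. Genotype and DSS concentration therefore cannot be told apart in any difference below. The labels do not say whether each array is a separate mouse. The p-values therefore cover no more than the spread among these 5 arrays, which may be technical.

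Many mouse genes make more than 1 transcript, through alternative exons, promoters or polyadenylation sites. A long oligo reports only the transcripts that contain its stretch of sequence, so probes of 1 gene can differ in level and in response. Long oligos also differ in how well they bind and in their distance from the poly(A) tail at which labelling began here, so the level of a ratio between probes is not a ratio of transcripts. A difference of the ratio between genotypes cancels a constant factor of a probe, but not signal added by background. The ratio difference of a very dim mMA probe can therefore mostly mirror its partner's difference, with the opposite sign. Throughout, the ratio is log2 of the mMA signal minus log2 of the partner signal on the same array. A ratio of 0 means equal signal, a negative one a dimmer mMA probe.

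The arrays were not equal in quality. WT littermate replicate 1 had 13352 gene probes found, against 16380 to 19509 on the other 4 arrays, and 1240 spots marked bad, against 0 to 4. Its bad spots left 113 of the 1584 pairs without a ratio on that array, so fits of those pairs rest on the other 4 arrays. The summed log2 level of 10 neutrophil markers was 11.23 and 10.79 in villin-TLR4, against 15.24, 10.39 and 10.01 in WT littermate replicates 1, 2 and 3. Of the 10 genes, 9 had a usable probe. In villin-TLR4 4 were found on each array, against 9, 5 and 3 in WT littermate replicates 1, 2 and 3. Smooth muscle markers summed to 16.40 and 15.90 in villin-TLR4, against 14.24, 16.45 and 15.59 in WT littermates. Exocrine pancreas markers summed to 13.98 and 13.24 in villin-TLR4, against 14.14, 14.57 and 16.24 in WT littermates. Of 10 genes, 7 had a usable probe, with 4 and 3 found in villin-TLR4, against 6, 7 and 7 in WT littermates. Cela1 made up most of the villin-TLR4 sums, at 13.78 and 12.74, against 13.42, 14.06 and 14.02. Ctrb1 was at 7.19 and 7.08 in villin-TLR4, against 8.93, 10.85 and 14.12, and Cela2a at 6.36 and 6.46, against 8.20, 10.88 and 14.17. All 10 colon epithelial markers were found on every array. In bulk tissue, fewer cells of a type and less RNA per cell cannot be told apart. By scan day, villin-TLR4 replicate 1 stood alone and WT littermate replicates 1 and 3 shared a day. The replicates numbered 2 of both genotypes shared another. The pair scanned together gives the within-day difference quoted below.

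The typical mMA probe was dimmer than the brightest mMC probe of its gene. The median ratio over members was -0.96 and -0.84 for villin-TLR4, against -0.92, -0.94 and -0.92 for WT littermates. Averaged over the arrays, the quartiles were -1.96 and -0.02 and the extremes -6.72 and 5.81. The mMA probe was the brighter one in 388 pairs (24.5%), and it lay more than 2 log2 units below its partner in 386 (24.4%). The rule sets each probe against the brightest mMC probe, but only 100 members had more than 1 mMC probe to choose from. No member or partner was saturated.

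The mMR class had a higher level. Across 1664 mMR probes set against mMC partners in the same way, the median ratio was -0.01 and 49.7% were above 0. In 260 genes that had both classes, the median was -0.63 for mMA probes and 0.10 for mMR probes, and mMA was the lower in 188 (72.3%). A second mMC probe of the gene, lower by construction, had a median of -1.18 over 585 probes. In 77 genes with both, mMA probes had a median of -1.48 and the second mMC probe -1.19. These are descriptions of probe behaviour in the colon, and the classes were not tested against each other.

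Dim partners went with high ratios. Over 4 equal bins of members ordered by partner level, the median ratio was 0.03, -0.90, -1.74 and -1.91 from the dimmest partners to the brightest. The partner level is itself a term of the ratio, so the order carries this by construction. Members found on all 5 arrays numbered 922 with a median of -0.58, and the 127 found on exactly 2 arrays, just inside the threshold, had a median of -1.53. The 124 probes found on 1 array, just outside it, had a median of -1.55.

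Within a pair the ratio held steady from array to array. Among 801 members with both probes found everywhere, 484 had the mMA probe below its partner on all 5 arrays, 153 had it above on all 5, and 164 (20.5%) changed side. The median within-genotype SD was 0.261 for the ratio, against 0.328 for the mMA probe alone and 0.316 for the partner alone. Leaving out WT littermate replicate 1 brought the median SD of the ratio to 0.186. On that array the ratio lay more than 1 log2 unit from the pair's mean over the other arrays in 91 of the 801 pairs. The same count was 16 and 9 pairs in villin-TLR4 and 6 and 2 in the other WT littermates.

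Among the highest ratios of pairs found on all arrays were those of Prdx2, Polr1d, Gstm6, Scp2 and Calu. Prdx2 encodes a peroxiredoxin that reduces hydrogen peroxide. Its mMA probe mMA032642 had log2 signals of 13.84 and 13.88 in villin-TLR4, against 13.85, 13.48 and 13.76 in WT littermates, while its partner lay at 9.36 and 9.23 in villin-TLR4, against 9.61, 8.56 and 8.84 in WT littermates. The ratio averaged 4.57 ± 0.12 in villin-TLR4 (SD, n = 2) and 4.69 ± 0.39 in WT littermates (SD, n = 3), with overlapping values. Polr1d, a subunit of RNA polymerases I and III, had a mean ratio of 4.34 over the arrays. Gstm6, a mu-class glutathione S-transferase, followed at 3.95, and whether its probes also bind the close relatives of this gene was not tested. The sterol carrier gene Scp2 had 3.77, and Calu, which encodes a calcium-binding protein of the endoplasmic reticulum, had 3.53.

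At the other end stood Bsg, Serpinb6a, Tpm2, Shisa5, Gsn and Slc39a4. Bsg encodes basigin, a chaperone of lactate transporters. Its mMA probe mMA034280 had log2 signals of 7.92 and 7.53 in villin-TLR4, against 7.51, 7.88 and 7.61 in WT littermates. Its partner was near the top of the scale at 14.30 and 14.81 in villin-TLR4, against 14.29, 14.16 and 14.51 in WT littermates. The mean ratio of -6.72 was the lowest of all members. The mMA probes of the 6 genes averaged between 7.45 and 8.37 in villin-TLR4 and between 7.44 and 8.70 in WT littermates. The dimmest level of a gene probe well above background was 6.75 to 7.78 by array, with 7.78 on WT littermate replicate 1. The 6 probes did not all lie close to it. The Slc39a4 probe was at 8.10 and 8.46 in villin-TLR4 replicates 1 and 2, where that level was 6.92 and 7.17. The Serpinb6a probe was at 8.19 and 8.02 in WT littermate replicates 2 and 3, where that level was 6.76 and 6.75. The Gsn probe reached 9.61 on WT littermate replicate 2. Well above background means found by the software and over the local background by more than 2 of its SDs. The partners of the 6 genes averaged 12.94 to 14.55 in villin-TLR4 and 12.32 to 14.32 in WT littermates. Serpinb6a, an intracellular serine protease inhibitor gene, had a mean ratio of -6.07, Shisa5 -5.33 and the actin-severing gelsolin gene Gsn -5.14. Slc39a4, the zinc importer of the intestinal epithelium, had -5.08.

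Tpm2 held both kinds of mMA probe at once. The gene encodes beta-tropomyosin, an actin-binding protein of muscle whose transcripts carry alternative exons. Probe mMA033722 gave 15.02 and 14.39 in villin-TLR4, against 13.15, 15.09 and 14.26 in WT littermates. Probe mMA033958 gave 7.40 and 7.50 in villin-TLR4, against 8.47, 7.70 and 7.49 in WT littermates. Both carried the same transcript accession and had the same partner, and their mean ratios were 0.80 and -5.87, the widest range of any gene with several members (6.67). The mMC partner and mMA033722 were lowest on the same array, WT littermate replicate 1, where smooth muscle markers were also lowest, and mMA033958 was highest there. The part of that tissue in the Tpm2 values was not tested.

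Across the 209 genes with 2 or more members, the median range of the mean ratio within a gene was 0.86. The following genes were chosen after their values were seen. Tgfbr2, the type II receptor for TGF-beta, had mean ratios of 4.81 and -1.03 at its 2 probes. Hnrnpa2b1, an RNA-binding protein gene, had 5.12 and 0.63. Fn1, the gene for fibronectin with its well known alternative exons, had 1.00 and -3.07, and the cytoskeletal linker gene Dst had 4.07, 0.35 and 0.08 at its 3 probes. Their partners were found on 3 arrays (Hnrnpa2b1 and Dst) or 4 (Tgfbr2 and Fn1).

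Between genotypes no member passed the test. With limma and Benjamini-Hochberg adjustment over all 3885 within-gene ratios, 0 were called (0%), with no adjusted p below 0.916. Members with an unadjusted p under 0.05 numbered 58 (3.66%), 32 higher and 26 lower in villin-TLR4. The same share over all within-gene ratios was 4.2%, split into 2.08% higher and 2.11% lower. The villin-TLR4 and WT littermate values did not overlap in 306 of 1471 members with a ratio on every array (20.8%), 184 higher and 122 lower, against 22.9% of all within-gene ratios (12.2% higher and 10.7% lower). By direction the members' shares were 12.5% higher and 8.29% lower, and those of the other classes 12.1% and 12.3%. All within-gene ratios include the members. The members' shares were thus near the background, apart from a smaller share lower in villin-TLR4, which was not tested. An exact permutation of 2 against 3 arrays cannot give a p below 0.1.

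The median difference over members, villin-TLR4 minus WT littermate, was 0.011, with quartiles of -0.19 and 0.21, extremes of -1.70 and 1.64, 812 positive and 772 negative values. There were 22 members that differed by more than 1 log2 unit, 6 upward and 16 downward (1.39%, against 1.21% of all within-gene ratios), and 8 without WT littermate replicate 1. The median SE of a difference was 0.263. For the 2301 ratios of the other classes the median was -0.004. The pair of arrays scanned on the same day gave a median of 0.129 over members and 0.023 over the other classes. Without WT littermate replicate 1, 120 members had an unadjusted p under 0.05 (7.58%, against 8.49% of all within-gene ratios) and 0 were called (0%), with no adjusted p below 0.277. Then 560 members did not overlap (35.4%), against 37.8% of all within-gene ratios. Taken singly rather than as ratios, 0 of the 19121 gene probes were called by limma and 888 (4.64%) had an unadjusted p under 0.05, among them 37 of the member mMA probes (2.34%).

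In the 801 pairs found everywhere, the mMA probe and the partner differed in the same direction in 565. The median size of the difference was 0.219 for the mMA probe, 0.229 for the partner and 0.181 for the ratio. The partner differed by more than 1 log2 unit in 29 members of 24 genes. The mMA probe had the same direction in 28 of these and the smaller size in 25. These were picked on the partner's difference, so the smaller size is a description. The colon NADPH oxidase gene Nox1, the pancreatic lipase cofactor gene Clps, the sodium pump regulator gene Fxyd4 and the matrix protease gene Mmp3 were among the 29, the last 3 chosen after their values were seen. Clps had mMA and partner differences of -1.52 and -1.51, Fxyd4 had -2.55 and -2.14, and Mmp3 had -1.15 and -1.92. The pancreas markers were highest in WT littermate replicate 3, and their part in the Clps values was not tested.

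The pairs with the largest positive differences and no overlap were in Cxcl12, Pi4k2b, Eif4g2, Atp6ap2, Marchf7, Lsr and Mindy3. Cxcl12 is the chemokine that binds CXCR4. The ratio of mMA033275 was 1.21 and 1.61 in villin-TLR4, against -1.69, 0.65 and 0.36 in WT littermates. WT littermate replicate 1 lay well below the other WT littermates. The difference was 1.64 ± 0.67 (SE), and 0.91 without that array and 0.96 within the shared scan day (limma adjusted p = 0.916 over all arrays). The partner averaged 9.31 in villin-TLR4 and 9.37 in WT littermates, and the mMA probe averaged 10.72 in villin-TLR4 and 9.15 in WT littermates. Cxcl12 also has an mMR probe, mMR030418, which was at 10.75 and 10.07 in villin-TLR4, against 8.68, 9.62 and 9.73 in WT littermates. Its ratio differed by 1.13 ± 0.49, by 0.61 without WT littermate replicate 1 and by 0.69 within the shared scan day. A second mMA probe, mMA033949, carries another Cxcl12 transcript accession, and its ratio differed by 0.47 over all arrays and by 0.26 without WT littermate replicate 1.

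In Eif4g2, Mindy3 and Lsr, as in Pi4k2b below, the partner had the larger difference. Eif4g2 encodes a translation initiation factor that acts without cap binding. Its mMA probe averaged 11.17 in villin-TLR4 and 11.12 in WT littermates, and its partner 11.56 and 12.48, giving a ratio difference of 0.97 ± 0.30. Mindy3, a deubiquitinase gene, had an mMA probe at 8.63 in villin-TLR4 and 8.78 in WT littermates and a partner at 6.97 and 7.90. Its ratio was 1.48 and 1.84 in villin-TLR4, against 1.14, 0.77 and 0.73 in WT littermates (difference 0.78 ± 0.24). The second Mindy3 member, mMA033250, has the same partner and differed by 0.57. That partner was at 7.03 and 6.91 in villin-TLR4 replicates 1 and 2. The dimmest level well above background on these arrays was 6.92 and 7.17. Lsr, a lipoprotein receptor gene that also serves tricellular junctions of epithelium, had mMA means of 10.73 in villin-TLR4 and 10.58 in WT littermates and partner means of 9.78 in villin-TLR4 and 10.42 in WT littermates. Its ratios were 0.76 and 1.14 in villin-TLR4, against 0.01, 0.25 and 0.21 in WT littermates, a difference of 0.79 ± 0.23. None of these genes passed the adjusted test.

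Atp6ap2, the prorenin receptor and an accessory subunit of the vacuolar proton pump, had 3 members with 1 partner. The ratio of mMA033934 was -0.50 and 0.15 in villin-TLR4, against -0.98, -1.19 and -1.24 in WT littermates. That of mMA034251 was 0.71 and 1.14 in villin-TLR4, against 0.15, -0.03 and 0.25 in WT littermates. The 3 differences were 0.96 ± 0.26, 0.80 ± 0.23 and, at mMA033203, 0.89 ± 0.38, the last being 0.52 without WT littermate replicate 1. The partner differed by -0.19 and the mMA probes by 0.77, 0.61 and 0.70, and the 3 members share that single mMC probe. Pi4k2b, a phosphatidylinositol 4-kinase gene, had ratios of 1.93 and 2.03 in villin-TLR4, against 0.50, 1.15 and 1.09 in WT littermates. Its probes carry different accessions and differed in opposite directions, by 0.47 at the mMA probe and -0.60 at the partner (ratio difference 1.06 ± 0.27). Marchf7, a ubiquitin ligase gene, had 0.02 and 1.01 in villin-TLR4, against -0.15, -0.74 and -0.13 in WT littermates. Its difference of 0.85 ± 0.36 was 0.36 without villin-TLR4 replicate 2 and 1.74 within the shared scan day.

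The pairs with the largest negative differences and no overlap were in Bcl2l12, Ssbp3, Smarce1, Nox1, Flot1, Fastk, Yipf3 and Mfsd13a. Bcl2l12 encodes a relative of the BCL2 apoptosis regulators. Its ratio was -0.66 and -0.29 in villin-TLR4, against 2.08, 0.16 and 1.43 in WT littermates. WT littermate replicate 2 lay close to the villin-TLR4 arrays. The difference was -1.70 ± 0.53 over all arrays and -0.45 within the shared scan day. Smarce1, a subunit of the SWI/SNF chromatin remodelling complex, had -0.03 and 0.13 in villin-TLR4, against 1.41, 0.79 and 0.90 in WT littermates. The mMA probe differed by -0.43 and the partner by 0.55, which gave -0.98 ± 0.26 for the ratio. Both pairs had the 2 probes on opposite sides.

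For Nox1 and Ssbp3 the partner had the higher mean in villin-TLR4, and the mMA difference was smaller or of the opposite sign. Nox1 encodes the superoxide-producing oxidase of colon epithelium. Its partner mMC015427 had log2 signals of 11.40 and 12.21 in villin-TLR4, against 11.44, 8.33 and 9.48 in WT littermates. Its mMA probe mMA034962 had 8.56 and 8.94 in villin-TLR4, against 8.82, 6.73 and 7.26 in WT littermates. Both probes were high in WT littermate replicate 1, which overlapped the villin-TLR4 arrays. The partner difference was 2.06 ± 0.85, the mMA difference 1.14 ± 0.60 and the ratio difference -0.92 ± 0.34 (-1.68 within the shared scan day). On WT littermate replicate 2, which enters the within-day difference, the mMA probe lay just below the dimmest level well above background (6.76). The part of this floor in the ratio difference was not tested.

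Ssbp3 encodes a cofactor of LIM-domain transcription complexes and had 4 probes. Its partner mMC023020 averaged 11.76 in villin-TLR4 and 10.80 in WT littermates and so differed by 0.96 ± 0.30. Another mMA member, mMA032430, chosen after its values were seen, had a signal difference of 0.97 ± 0.26, and the mMR probe one of 0.72 ± 0.25. Probe mMA034713 lay at 7.39 and 7.47 in villin-TLR4, against 7.88, 7.48 and 7.51 in WT littermates, close to the dimmest level well above background, and its signal difference was -0.20 ± 0.24. Its ratio differed by -1.15 ± 0.35, and by -0.41 within the shared scan day. The adjusted p of each Ssbp3 probe in the limma fit over single probes was 0.883 or above.

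Flot1, a membrane scaffold gene, had the smallest unadjusted p among the members (0.00493). Its ratio was -3.96 and -3.82 in villin-TLR4, against -3.09, -3.11 and -2.82 in WT littermates, a difference of -0.88 ± 0.22 and of -0.70 within the shared scan day. The mMA probe averaged 7.41 in villin-TLR4 and 7.67 in WT littermates, again close to the dimmest level well above background, and the partner averaged 11.29 in villin-TLR4 and 10.68 in WT littermates. Fastk, which encodes a kinase-family protein acting on mitochondrial RNA, had a ratio of -1.53 and -1.08 in villin-TLR4, against -0.36, -0.51 and -0.81 in WT littermates (difference -0.75 ± 0.25). The other 3 Fastk members, chosen after their values were seen, share the partner and differed by -0.06, -0.15 and -0.19. Yipf3, a Golgi membrane protein gene, differed by -0.70 ± 0.21, and Mfsd13a by -0.57 ± 0.21. Gsn and Slc39a4, named above for their low ratios, differed by -0.56 ± 0.20 and -0.52 ± 0.21. In Slc39a4 both probes had a higher mean in villin-TLR4, the mMA probe by 0.84 and the partner by 1.36.

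Over all 58 members with an unadjusted p under 0.05, the partner had the larger difference in 39 (67.2%), against 838 of all 1584 members (52.9%). The 2 probes had opposite signs in 41 of the 58. Both counts were taken on members picked by the same contrast and carry no test.

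Cd44 was 1 of 2 genes with several members that all had an unadjusted p under 0.05, the other being Mindy3. In each gene the members share a partner, and 1 Cd44 member was found in WT littermates alone. Cd44 encodes the hyaluronan receptor, and its variable exons are a textbook case of alternative splicing in epithelium. The partner mMC014347 had log2 signals of 9.07 and 9.40 in villin-TLR4, against 10.72, 10.72 and 10.59 in WT littermates, with no overlap and a difference of -1.44 ± 0.23 (unadjusted p = 0.000607, adjusted p = 0.883 in the limma fit over all probes). The 4 mMA probes were dim everywhere. They lay between 6.56 and 7.27 in villin-TLR4 and between 6.67 and 7.85 in WT littermates.

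The ratios of the Cd44 probes mMA031720, mMA032888 and mMA033099 differed by 0.82 ± 0.23, 1.07 ± 0.29 and 1.22 ± 0.33, with no overlap in any. The signals of all 4 mMA probes themselves differed by -0.62, -0.37, -0.21 and -0.51. Probe mMA035303 was found on no villin-TLR4 array and on 2 of the WT littermate arrays. It is a member through WT littermates alone, so its ratio is not compared and the filter favoured the direction of its signal. WT littermates had at least 1.29-fold higher signal, set against the dimmest level well above background on the villin-TLR4 arrays (adjusted p = 0.883 in the limma fit over all probes). The remaining 3 were each found on 1 villin-TLR4 array, so part of their villin-TLR4 ratios rests on spots not marked as found. Outside the mMA class, the ratio of the dim mMR probe mMR028593, found on every array, differed by 0.93 ± 0.30. A second mMC probe, mMC019780, was found on no villin-TLR4 array and on 2 WT littermate arrays, so its ratio is not compared. The 4 members share 1 partner and are not independent.

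The other genes with the most members had smaller differences. Asph, an aspartyl hydroxylase gene that also yields calcium-handling proteins of muscle from alternative transcripts, had 13 mMA probes printed and 6 members. Member mMA031499 was found on no villin-TLR4 array. It is a member through WT littermates alone, so its ratio is not compared. The ratios of the other Asph members had a lower mean in villin-TLR4, with differences of -0.85 to -0.50 and overlapping values in each. The partner shared by the 6 members differed by 0.91 ± 0.53, and was lowest and not found on WT littermate replicate 1. Without that array the compared differences were -0.46 to -0.15. Map3k20, a stress kinase gene, had 6 members with differences between -0.20 and 0.33. Afmid, an enzyme gene of tryptophan breakdown, had 5 members between -0.41 and 0.25. Among the 209 genes with several members, all differences ran in 1 direction in 124. The members of a gene usually share a partner, which ties their directions together.

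Genes known for alternative exons in epithelium, a list of 33 that includes Cd44, had members in 9 genes (15 probes). Of these, 10 were higher and 5 lower in villin-TLR4, the median difference was 0.25 against 0.011 over all members, and 0 passed the adjusted test. These counts and medians include members found in WT littermates alone, among them Cd44 mMA035303 and Dst mMA034586 (-0.41, the lowest of the list). They are descriptions and carry no support for a direction. Without the 4 Cd44 members, which share a partner, the median over the remaining 11, with that Dst member, was 0.11. The 5 with an unadjusted p under 0.05 were Lsr and the 4 of Cd44, among them mMA035303, found in WT littermates alone. Numb, whose exons switch in epithelium and which restrains Notch, had a mean ratio of -2.57 and a difference of 0.25 ± 0.29 at mMA034267. That difference was 0.01 without WT littermate replicate 1 and 0.05 within the shared scan day, and the other Numb member differed by -0.15. Egfr, the epidermal growth factor receptor, was chosen after its values were seen from the colon cancer list. The Egfr member carries another accession than its partner, and its ratio was -3.19 and -2.54 in villin-TLR4, against -4.85, -3.54 and -3.19 in WT littermates. It differed by 1.00 ± 0.50 with touching groups, and by 0.50 without WT littermate replicate 1.

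Genes with muscle-type exon switches, a list of 32, had 17 members in 10 genes, with 8 higher and 9 lower, a median difference of -0.11 and none with an unadjusted p under 0.05. Myl6, a myosin light chain gene, had ratios of 1.07 and 2.03 in villin-TLR4, against 0.43, 1.02 and 1.29 in WT littermates (difference 0.64 ± 0.38, and 0.40 without WT littermate replicate 1). Pdlim5, a Z-disc adaptor gene, differed by -0.47 ± 0.25 at mMA033514 and by -0.11, 0.15 and 0.15 at its other 3 members. The dim Tpm2 probe differed by -1.11 ± 0.80. The Tpm2 difference was -0.29 without WT littermate replicate 1 and 0.69 within the shared scan day.

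Splicing factors themselves, a list of 60, had 23 members in 19 genes, with 12 higher, 11 lower and a median difference of 0.02. The only 1 with an unadjusted p under 0.05 was the Hnrnpa2b1 probe mMA031937, which differed by -0.82 ± 0.34, and by -0.03 within the shared scan day. Rbm5, an RNA-binding regulator of exon choice, had a ratio of -0.61 and -0.22 in villin-TLR4, against -1.98, -0.70 and -1.16 in WT littermates (difference 0.87 ± 0.39, and 0.51 without WT littermate replicate 1). Tial1, another RNA-binding regulator, differed by -0.93 ± 0.61 over all arrays and by 0.79 within the shared scan day. Hnrnph1 differed by -0.38 ± 0.30 at mMA031651 and by 0.02 at its other member. Without WT littermate replicate 1, Tial1 differed by -0.59 and Hnrnph1 mMA031651 by -0.15.

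Innate immune and NF-kappaB genes, a list of 57, had 14 members in 12 genes, with 8 higher, 6 lower and a median difference of 0.04. Nox1 was the single one with an unadjusted p under 0.05. Tlr4 itself had no member. The TLR adaptor genes Ticam1 and Tirap differed by -0.45 ± 0.35 and -0.11 ± 0.23 over all arrays, and by -0.13 and -0.04 without WT littermate replicate 1. In Tirap both probes had a lower mean in villin-TLR4, with differences of -0.69 at the mMA probe and -0.57 at the partner. Colon cancer signalling genes, a list of 43, had 11 members in 9 genes, with 5 higher, 6 lower, a median difference of -0.02 and none with an unadjusted p under 0.05. Mdm2, the ubiquitin ligase of p53, differed by 0.68 ± 0.37, and by 0.33 without WT littermate replicate 1. The survival gene Bcl2l1 differed by 0.26 ± 0.20, and the stress kinase gene Mapk9 by -0.30 ± 0.31 at mMA033537 (-0.05 without WT littermate replicate 1) and 0.22 at its other member.

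The mMA probe was found on no villin-TLR4 array in 97 members and on no WT littermate array in 3. The rule asks for 2 arrays of any genotype and villin-TLR4 has 2 in all, so the rule itself favours the first count. The counts were not set against all gene probes and are not read as a result about mMA probes or a genotype. In all, 11 members were found on all arrays of 1 genotype and none of the other, with the partner found everywhere. A pick on where a probe was found favours higher signal in that genotype. The folds below are therefore descriptions, and their direction carries no support for a genotype difference. Hoxa10, a gene of posterior body patterning, had log2 signals of 6.55 and 6.63 in villin-TLR4, against 10.52, 6.59 and 6.48 in WT littermates. Its bound of at least 1.77-fold higher in WT littermates rested on WT littermate replicate 1 alone. Without that array the WT littermate signal was below the bound and gives no fold. Ino80c, a chromatin remodelling subunit gene, had at least 1.30-fold higher signal in WT littermates and at least 1.06-fold without replicate 1. Epc1, a histone acetyltransferase complex gene, was at least 1.02-fold higher, and without replicate 1 it too gives no fold. The probes of Trim24 and Fxyd2 gave none with all arrays. The adjusted p of these probes in the limma fit over all probes was 0.883 or above.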

How the data were processed

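RNA from 5 colon samples was labelled with a poly(A)-primed T7 method and hybridised in 1 colour, per the labels' protocols. The authors deposited scanner intensity per spot, read at 635 nm with GenePix Pro 4.1.1.4 and not normalized, per the file headers. Each deposited spot flag is a score (0 found, -50 not found, -75 absent, -100 bad). The authors' deposited value table holds a ratio for each probe on a linear scale, while the sources used here do not give its baseline. Its medians were 0.981 to 1.18, and its probe-centred log2 values correlated with those used here at 0.947 to 0.982.

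The foreground median was background-corrected (normexp, offset 50) and quantile-normalized over gene probes, with bad spots missing, in R 4.3.3 with limma 3.58.1. Transcript accessions were matched to a RefSeq table of GRCm38.p6, which gave 23071 of 35078 probes 1 symbol. The partner was the mMC probe brightest on average over the 5 arrays. Groups came from the genotype labels. The ratio was fitted with lmFit and eBayes over all within-gene ratios, villin-TLR4 minus WT littermate, two-sided, with Benjamini-Hochberg adjustment and a threshold of 0.05, and single probes likewise. A bound sets the bright genotype's mean against the dimmest probe well above background on each dim array (found, and over the local background by more than 2 SDs), or the probe's own signal where higher. The fits were tested on simulated data.

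The members and gene lists were chosen with earlier results of these data known. Named were the 6 highest and 6 lowest ratios and up to 8 largest differences in each direction (both probes found on 5 arrays, unadjusted p under 0.05, no overlap), up to 3 members of each list by p, the 4 genes with the most members, and up to 5 members found in 1 genotype. Predicted genes were left out of this naming, and 1 gene that the rule names is not reported here. Alternatives changed the background correction, scaling, filters, partner, covariates, arrays and source table. The number of arrays limits the precision. Replicate numbers did not pair the arrays: deviations of same-numbered arrays correlated at -0.171 and -0.228 over 12226 probes.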

Additional observations from a re-analysis of the deposited data

How the results depend on the processing

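The count of 0 members called did not change under any alternative run, a threshold of 0.10 and the authors' deposited table included. Single probes called, 0 in the fit reported, were 34 with the replicate block and 68 with scan day as a block; both leave fewer residual degrees of freedom among the 5 arrays. The median ratio of -0.91 became -1.24 with plain background subtraction, -1.04 with an offset of 16, -0.70 with the foreground mean, -0.58 with no filter, -0.75 for pairs found on all 5 arrays and -0.86 against the mean of all found mMC probes. It cannot be computed from the authors' table, where each probe is relative to its own baseline. The median difference of 0.011 became 0.129 with scan day as a block and -0.04 with sex as a covariate. It ranged from -0.04 to 0.062 when 1 array was left out, and was 0.02 with the replicate block. Pairs with no overlap (306, 184 higher and 122 lower) were 530, 286 and 244 with no filter, 166, 98 and 68 for pairs found on all 5 arrays, and 118, 77 and 41 in the authors' table. Leaving out 1 array gave 474 to 678, 274 to 446 and 194 to 371, since fewer arrays make overlap rarer.

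The 54 differences named by rule took 1198 values under 23 alternatives, of which 1171 kept their direction. None of the 16 pairs with the largest differences turned. They were picked for no overlap between genotypes, so leaving out an array, a block or sex as a covariate could not turn them. Under those alternatives their kept direction is no sign of stability. With scan day as a block, these turned: Tpm2 mMA033958 (0.69), Tial1 (0.79), Hnrnph1 (0.15), Ticam1 (0.05), Mapk9 (0.14), Afmid mMA032649 (0.22) and Epc1 (0.04). With sex as a covariate, 0.06 for Tirap, 0 for Map3k20 mMA032548, -0.17 for Map3k20 mMA034259 and 0.14 for Afmid mMA035300 came out. Map3k20 mMA034259 also gave -0.12 with plain subtraction, -0.07 with the foreground mean and -0.04 with the replicate block. Leaving out 1 array gave -0.28 to 0.06 for Tirap, -0.40 to 0 for Map3k20 mMA032548, -0.17 to 0.28 for Map3k20 mMA034259, -0.36 to 0.14 for Afmid mMA035300, -0.01 to 0.17 for Afmid mMA033269 and -1.71 to 0.39 for Hoxa10. The foreground mean gave -0.04 for Map3k20 mMA034266 and -0.03 for mMA034995. Afmid mMA035300 gave 0.05 with no background correction and 0.32 in the authors' table, where Numb gave -0.13. The cause of these turns was not tested.

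The male mouse is villin-TLR4 replicate 2 alone, so sex and that array cannot be told apart. Probes near the dimmest level well above background add little signal of their own to a ratio, and WT littermate replicate 1 had the lowest upper-quartile signal over background (116, against 256 to 481).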
